A study of Gallus gallus with 16 samples.

Results

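The genes described here are 10 regulators of the G1 phase of the cell cycle: the D cyclins CCND1, CCND2 and CCND3, their kinase CDK6, the CDK inhibitors CDKN1A (p21), CDKN1B (p27), CDKN2B (p15) and CDKN2C (p18), the retinoblastoma gene RB1, and MDM2. They were taken by gene symbol from a list of G1 control genes. Each symbol matched 1 Ensembl gene, in 1 row of the deposited count table, so the set is 10 of 23910 genes. All 10 passed the filter on low counts in every comparison.

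In animal cells, growth factors raise the D cyclins, which bind CDK4 or CDK6 and start the phosphorylation of the RB protein. RB that is not phosphorylated holds the E2F transcription factors and keeps the genes of DNA synthesis off. Inhibitors of the INK4 family (CDKN2B and CDKN2C here) bind the kinases CDK4 and CDK6, and those of the CIP/KIP family (CDKN1A and CDKN1B) bind cyclin and kinase complexes, above all those of CDK2. MDM2 encodes a ubiquitin ligase, and in mammals both MDM2 and CDKN1A are induced after DNA damage. Loss of G1 control is a common feature of ovarian cancer. Much of the control of these proteins lies in phosphorylation and degradation, which RNA levels do not show.

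RNA was sequenced from COVCAR cells, primary cells grown from the ascites (the fluid of the body cavity) of Leghorn hens that were past peak laying age and whose tumors the labels call ovarian endometrioid adenocarcinoma. There were 4 lines, C5, C7, C9 and C11, each from 1 hen, and each was kept for 24 h in low attachment plates with no metformin (control) or with this biguanide drug against diabetes at 0.5, 1 or 2 mM. All groups, the control included, were in the same medium without serum, to which insulin and epidermal growth factor were added, and no gene was edited. Each line and dose gave 1 library, 16 in all, so n = 4 lines in each dose group. The cells were at passage 3 for C5, C7 and C9 and at passage 2 for C11. A line stands for 1 animal, and a difference between lines cannot be told apart from a difference in how that culture was started or grown.

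Total counts on genes were between 34724071 and 42531887 per library. Levels below are CPM, which are counts scaled to a common library total after TMM normalization, and a level per kb is the CPM divided by the exonic length of the gene in kb. The epithelial keratin KRT7 was at 205 to 860 CPM, while the epithelial adhesion gene EPCAM did not exceed 0.645 CPM and the tight junction gene CLDN3 did not exceed 0.232 CPM in any library. E-cadherin (CDH1) was at 0.461 to 7.15 CPM and the collagen COL1A1, a fibroblast marker, at 1880 to 29600 CPM. The summed level of 8 fibroblast markers was 19600 to 67200 CPM in the control group and 8520 to 30600 CPM at 2 mM, and that of 6 measured genes of proliferating cells was 55.6 to 201 CPM in the control group and 78.9 to 259 CPM at 2 mM. Their part in the results below was not tested. In RNA from whole cultures, fewer cells of a type and less RNA per cell cannot be told apart.

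The libraries stood apart in a way that dose does not follow. In each library, the level of 10632 genes relative to their mean over libraries was set against exonic length, and the slope of this line (log2 CPM per doubling of length, below called the length slope) was above 0 in 7 libraries and below 0 in 9. The 7 were all 4 libraries of C9 (0.155 to 0.262), 2 libraries at 0.5 mM, from C7 (0.181) and C11 (0.117), and that of C5 at 2 mM (0.236). At 1 mM every line had the same sign as its own control. At 2 mM this held for C7, C9 and C11 but not for C5, and at 0.5 mM for C5 and C9 but not for C7 and C11.

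The 10 genes spanned a wide range of levels. Per kb and as the mean of 16 libraries, the order was CDKN2B (221 ± 178 CPM per kb, SD), CDKN1A (179 ± 60.7), CDKN1B (99.9 ± 39.0), MDM2 (53.8 ± 52.1), CCND3 (20.2 ± 5.20), RB1 (19.0 ± 2.93), CCND1 (18.0 ± 5.23), CCND2 (13.5 ± 5.72), CDK6 (8.56 ± 4.71) and CDKN2C (7.12 ± 5.89). Most neighbors in this order differed by less than the larger of their SDs, so their order is not settled, and the step from CDKN1A to CDKN1B was the exception. By these means the inhibitors p15, p21 and p27 led the list per kb and p18 closed it, which did not hold in each library. In the C9 control MDM2 was at 145 CPM per kb and CDKN1B at 75, and in the C5 control CDKN2C was at 10.8 and CDK6 at 4.4. The counts of p18 were 41 to 372 per library, over an exonic length of 504 bases. RB1 was the steadiest of the 10, with a ratio of 1.6 between its highest and lowest library (113 and 71.0 CPM). Its SD on the log2 scale was 0.217, and 94.6% of genes varied at least as much. CDKN2B (66.6 to 1029 CPM) and MDM2 (21.2 to 316 CPM) varied the most, by 15.4-fold and 14.9-fold.

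**Figure D1:**
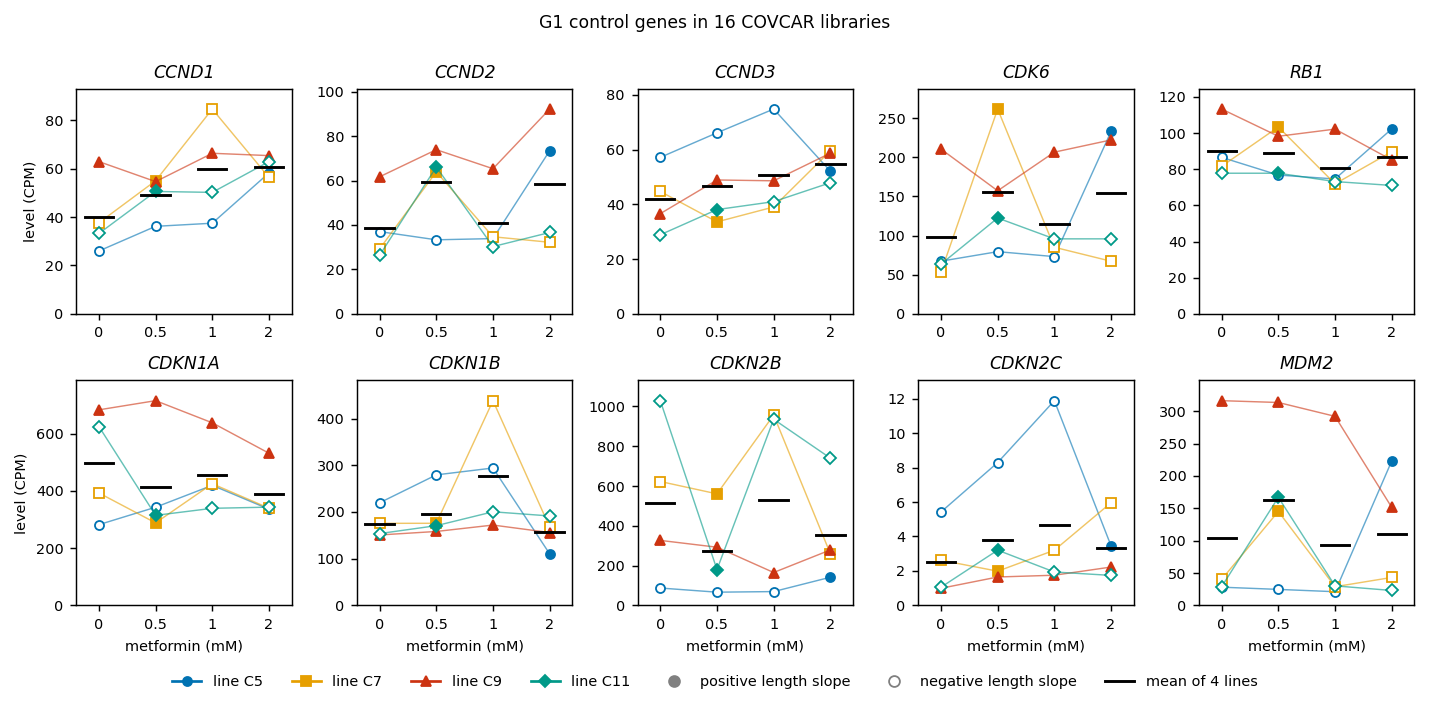
Level of each gene in CPM (vertical axis, from 0) at each metformin dose in mM (horizontal axis, evenly spaced steps), with 1 symbol and line color per COVCAR line, filled where the length slope of the library was positive and open where it was negative, and a black bar for the mean of 4 lines. CCND1 means go from 39.95 CPM in the control to 60.8 CPM at 2 mM, MDM2 is high only where the symbol is filled, and CDKN2B and CDKN2C are ordered by line more than by dose.

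Each dose was compared with the control to ask which of these genes respond to metformin, with edgeR's quasi-likelihood test on the 8 libraries of both groups. A DEG (differentially expressed gene) needed p under 0.01 before adjustment and under 0.05 after it. None of the 10 was a DEG at 0.5, 1 or 2 mM by edgeR or by DESeq2, and edgeR made no call among all genes either, so the background share of DEGs was 0% at each dose. The line was not a term in this test and differences between lines count as error, so the lack of an edgeR call says little about the 10. With the line and the length slope in the model, edgeR called CCND3 at 2 mM, beside 722 of 13289 genes. DESeq2 called 0 of 19012, 34 of 18841 and 365 of 19059 genes at 0.5, 1 and 2 mM. At an unadjusted edgeR p-value under 0.05, 0 of 10 passed at 0.5 mM, where 1.1% of all genes did, 0 of 10 at 1 mM, where 4.77% did, and 1 of 10 at 2 mM, where 10.6% did. In no gene of the 10 were all 4 treated libraries above or all below the 4 controls. Among all genes such groups without overlap made up 1.03% at 0.5 mM, 3.09% at 1 mM and 7.19% at 2 mM.

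A slope of log2 expression per mM over all 16 libraries was also fitted. Again 0 of 10 genes were DEGs by edgeR or DESeq2. The background was 61 of 14108 genes (0.432%) by edgeR and 731 of 19922 genes by DESeq2. By edgeR 1 of 10 had an unadjusted p-value under 0.05, against 14.8% of all genes. With the line as a replicate block the trend gave 700 DEGs among all genes and still none among the 10. Whether the slope differed between lines was tested as an interaction. By edgeR 0 of 10 genes were called (background 0%), and 0 of 10 had an unadjusted p-value under 0.05 (background 1.69%). DESeq2 called 0 of 10 members and 4 of 20109 genes in all.

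Cyclin D1 was the gene of the 10 with the smallest p-value at 2 mM and in the trend, while CCND2 had the smallest at 0.5 mM and CDKN1B at 1 mM. CCND1 (ENSGALG00000007555) lies on chromosome 5 from 17778656 to 17793544 on the plus strand (GRCg6a, as are all positions here). It was at 26.0 CPM (C5), 37.6 CPM (C7), 63.0 CPM (C9) and 33.2 CPM (C11) in the control group. At 2 mM it was at 58.3, 56.4, 65.4 and 63.0 CPM (C5, C7, C9 and C11 in that order). The 2 mM libraries lay close together and above 3 of the 4 controls, and C9, whose control was already at 63.0 CPM, was the line in which the groups met. The control mean of 39.95 ± 16.1 CPM compared with 49.1 ± 8.86 CPM (0.5 mM), 59.7 ± 20.4 CPM (1 mM) and 60.8 ± 4.16 CPM (2 mM; SD, n = 4). At 2 mM the log2 fold change was 0.63 (standard error 0.27, edgeR adjusted p = 0.467). It missed the threshold, and CCND1 was the 1 gene of the 10 with an unadjusted p-value under 0.05. CCND1 was higher than its own control in 4 of 4 lines at 2 mM, by 0.06 in C9, 0.58 in C7, 0.92 in C11 and 1.16 in C5 on the log2 scale. It was also higher in 4 of 4 lines at 1 mM, by 0.08 to 1.17.

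Over all doses CCND1 had a slope of 0.31 per mM (standard error 0.13, adjusted p = 0.283 by edgeR). It was called where the line was a term in the model together with the length slope (0.33 per mM, adjusted p = 0.0245 by edgeR), and by DESeq2 with the line as a block, both in the trend (0.32 per mM, adjusted p = 0.0329) and at 2 mM (0.67, adjusted p = 0.0493). Many other genes were called in these fits, 2277 of 14108 by edgeR, and by DESeq2 1713 of 20109 in the trend and 1841 of 19267 at 2 mM. At the level of single libraries, C7 at 1 mM had the highest CCND1 of all, 84.7 CPM, and without that line the log2 fold change at 1 mM went from 0.60 to 0.34. The exons of CCND1 overlap those of ORAOV1 on the other strand, and the reads were counted by strand.

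Cyclin D2, which shares the kinase partners of cyclin D1, was higher at 2 mM in 4 of 4 lines as well. CCND2 (ENSGALG00000017283; chromosome 1, 73471157 to 73515295, minus strand) was at 37.0 CPM (C5), 29.2 CPM (C7), 61.7 CPM (C9) and 26.3 CPM (C11) in the control, and at 73.4, 32.2, 92.2 and 36.6 CPM in the same lines at 2 mM. C5 at 2 mM and all C9 libraries were high, and these have a positive length slope. Its means of 38.6 ± 16.1 CPM (control), 59.3 ± 17.8 CPM (0.5 mM), 41.0 ± 16.3 CPM (1 mM) and 58.6 ± 29.0 CPM (2 mM) did not follow the order of doses. For CCND2 at 2 mM the log2 fold change was 0.63 (standard error 0.41, edgeR adjusted p = 0.656), and the 3 lines that kept the sign of their slope were higher by 0.14 to 0.58. The fold change of CCND2 was 0.32 without C9 at 2 mM and 0.94 without the control of C9.

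Cyclin D3 had means in the order of the doses. CCND3 (ENSGALG00000003485; chromosome 26, 5030630 to 5043220, minus strand) was at 57.2 CPM (C5), 44.7 CPM (C7), 36.6 CPM (C9) and 28.9 CPM (C11) in the control, and at 52.1, 59.5, 58.7 and 47.9 CPM at 2 mM. The line with the highest control, C5, was the only line that was lower at 2 mM (a difference of −0.13 on the log2 scale), and the groups overlapped. Means were 41.8 ± 12.1 CPM (control), 46.7 ± 14.5 CPM (0.5 mM), 50.9 ± 16.5 CPM (1 mM) and 54.6 ± 5.55 CPM (2 mM). For CCND3 the log2 fold change at 2 mM was 0.40 (standard error 0.24, edgeR adjusted p = 0.611) and the slope 0.20 per mM (standard error 0.12, adjusted p = 0.474). With the line and the length slope in the model, edgeR called CCND3 at 2 mM (0.59, adjusted p = 0.0449) and in the trend (0.23 per mM, adjusted p = 0.0202). Among all genes these fits called 722 of 13289 at 2 mM and 2277 of 14108 in the trend. The fold change of CCND3 at 2 mM was 0.26 without the control of C11 and 0.60 without C5. In C7, C9 and C11, whose length slope kept its sign, CCND3 was higher at 2 mM in 3 of 3 lines, by 0.41 to 0.73.

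Each D cyclin led in some libraries. Per kb, CCND3 was the highest of the 3 in 8 libraries, CCND1 in 6 and CCND2 in 2. CCND3 made up 55.5% of the summed D cyclin level in C5 without metformin and 58.5% in C5 at 1 mM, and CCND1 reached 53% in C7 at 1 mM. The sum of the 3 was 41.8 ± 9.54 CPM per kb (control), 52.6 ± 4.65 (0.5 mM), 52.9 ± 7.62 (1 mM) and 59.6 ± 9.51 CPM per kb (2 mM; SD, n = 4). The share of CCND3 was 42.6% ± 11.5 in the control and 38.6% ± 5.82 at 2 mM, a difference below 1 SD, and that of CCND2 had its highest mean at 0.5 mM (30.6% ± 8.05) and its lowest at 1 mM (20.9% ± 5.77). The share of CCND2 was 29.4% to 35.2% in the 7 libraries with a positive length slope and 16.6% to 23.6% in the 9 with a negative one. At 0.5 mM the slope was positive in C7, C9 and C11, and at 1 mM in C9 alone. These sums and shares are given as values without a test.

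CDK6 (ENSGALG00000009476) is the kinase that the D cyclins activate and lies on chromosome 2 from 22703461 to 22836675 on the minus strand. It was at 67.3, 53.3, 211 and 63.5 CPM (C5, C7, C9 and C11 in that order) in the control group. At 0.5 mM it was at 79.5 CPM (C5), 262 CPM (C7), 157 CPM (C9) and 122 CPM (C11), and at 2 mM at 233, 67.2, 222 and 95.9 CPM. High values were found in C9 at each dose and in the libraries of other lines whose slope had turned positive, and the groups overlapped at each dose. Its fold change at 2 mM was 0.68 on the log2 scale (standard error 0.55, edgeR adjusted p = 0.738), and all 4 lines were higher, C9 by 0.08 and C5 by 1.79. That fold change was 0.27 without C5 and 1.35 without the control of C9. The gene for the microRNA gga-mir-1650 lies in the exons of CDK6 on the same strand, and reads over it were counted for both.

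Of the 10 genes, 3 were higher in 4 of 4 lines at 2 mM (CCND1, CCND2 and CDK6), where 17.3% of all genes were, and 0 were lower in 4 of 4, where 18.6% were. At 1 mM, 3 were higher in 4 of 4 lines (CCND1, CDKN1B and CDKN2C; 15.2% of all genes) and 1 was lower (RB1; 15% of all genes).

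**Figure D2:**
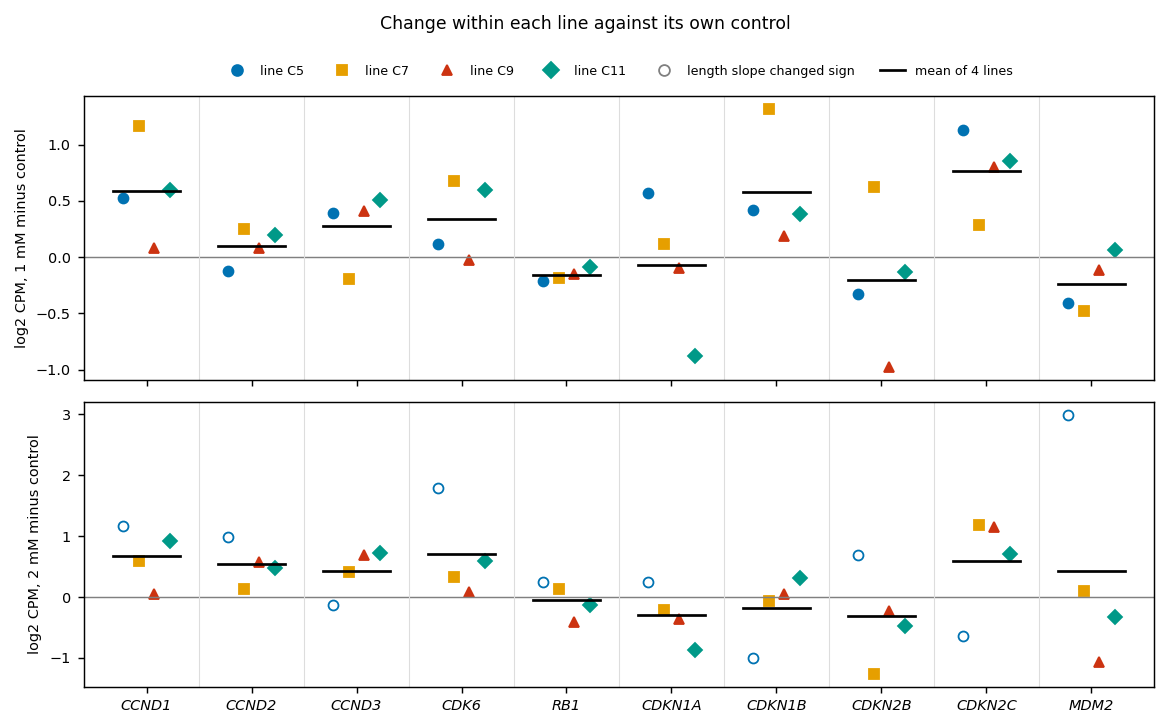
Change of log2 CPM in each line against its own control (vertical axis) for the 10 genes (horizontal axis), at 1 mM above and 2 mM below, with 1 symbol per line, open where the length slope of the treated library had the opposite sign to its control, and a black bar for the mean of 4 lines. CCND1 is above 0 in 4 of 4 lines at both doses, and C5 at 2 mM, the open symbol, lies farthest from the other lines for MDM2, CDK6, CDKN1B and CDKN2C.

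The CIP/KIP inhibitor p21 had a lower mean at each dose than in the control, without passing the test. CDKN1A (ENSGALG00000028318; chromosome 26, 1599230 to 1602396, plus strand) was at 282 CPM (C5), 392 CPM (C7), 683 CPM (C9) and 624 CPM (C11) in the control, and at 336, 339, 531 and 343 CPM at 2 mM. It was lower at 2 mM in C7, C9 and C11 (log2 differences of −0.21, −0.36 and −0.86) and higher in C5, and the groups overlapped. Means were 495 ± 189.6 CPM (control), 415 ± 201 CPM (0.5 mM), 455 ± 128 CPM (1 mM) and 387 ± 95.9 CPM (2 mM). The log2 fold change at 2 mM was −0.33 (standard error 0.32, edgeR adjusted p = 0.797), and it was −0.15 without the control of C9 and −0.55 without that of C5. C11 was the line with the widest range of CDKN1A, since its control stood at 624 CPM and its 3 treated libraries at 314 to 343 CPM.

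The other member of that family, p27, was highest at 1 mM. CDKN1B (ENSGALG00000022980; chromosome 1, 72102062 to 72105400, plus strand) was at 219.7, 176, 151 and 154 CPM (C5, C7, C9 and C11 in that order) in the control, and at 294, 438, 172 and 200.4 CPM at 1 mM. It was higher in 4 of 4 lines at that dose, by 0.19 to 1.32 on the log2 scale, and the groups overlapped. Its log2 fold change at 1 mM was 0.68 (standard error 0.32, edgeR adjusted p = 0.9999), and this was 0.34 without C7 at 1 mM, the highest library. At 2 mM the mean was 156 ± 34.0 CPM, close to the 175 ± 31.8 CPM of the control, and C5 was at 110.4 CPM, its lowest value. The mean at 1 mM, 276 ± 120.0 CPM, was the highest of the 4 doses and that at 2 mM the lowest.

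Among the INK4 inhibitors, p15 differed more between lines than between doses. CDKN2B (ENSGALG00000026137) was at 87.5 CPM (C5), 623 CPM (C7), 327 CPM (C9) and 1029 CPM (C11) in the control, and at 142, 259.9, 279 and 740.2 CPM at 2 mM. Log2 differences from the control at 2 mM were −1.26 to −0.23 in C7, C9 and C11, and C5 was higher. At 0.5 mM C11 was at 180.3 CPM, against 1029 CPM in its control and 936 CPM at 1 mM. For p15 the log2 fold change was −0.92 (standard error 0.77, edgeR adjusted p = 0.955) at 0.5 mM, 0.06 (standard error 0.91) at 1 mM and −0.53 (standard error 0.72, adjusted p = 0.866) at 2 mM. The value at 1 mM turned to −0.19 with the line as a block. CDKN2B lies on chromosome Z at 78858726 to 78862135 (GRCg6a, minus strand), 1997 bases from CDKN2A on the same strand. CDKN2A, named here after its values were seen, was at 82.9 to 275 CPM, with its highest mean in C9 (180 ± 81.7 CPM) rather than in C11 (101 ± 23.2 CPM).

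The other INK4 gene was CDKN2C (ENSGALG00000010537, chromosome 8, 24299173 to 24303146, plus strand), and its CPM was low. Its exonic length, 504 bases, is the shortest of the members, and the part of this length in the low CPM of CDKN2C was not tested. Its levels were 5.42 CPM (C5), 2.62 CPM (C7), 0.995 CPM (C9) and 1.06 CPM (C11) in the control, and 11.9, 3.203, 1.75 and 1.94 CPM at 1 mM. It was higher in 4 of 4 lines at 1 mM, by 0.29 to 1.13 on the log2 scale, although C5 was high and the others low in both groups and the groups overlapped. The log2 fold change was 0.90 (standard error 0.79, edgeR adjusted p = 0.9999), and −0.12 without C5 at 1 mM. At 2 mM the lines that kept their slope sign were higher in 3 of 3, by 0.71 to 1.18, and C5 was lower, at 3.46 CPM. The same line was also the highest in CCND3 at 0, 0.5 and 1 mM. Over the 16 libraries the Pearson r of log2 CPM between CDKN2C and CCND3 was 0.779 and that between CDKN2B and CCND3 was −0.747. These describe 4 libraries from each of 4 hens, which share line and batch of cells, and are not independent points.

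RB1 (ENSGALG00000016997; chromosome 1, 170065610 to 170150030, plus strand) encodes the substrate at the end of this pathway. It was at 86.6, 81.6, 113 and 77.8 CPM (C5, C7, C9 and C11 in that order) in the control, and at 102, 89.7, 85.1 and 71.0 CPM at 2 mM. The groups overlapped and the lines moved in both directions, 2 higher and 2 lower. The log2 fold change was −0.02 (standard error 0.19, edgeR adjusted p = 0.983) at 2 mM and −0.14 (standard error 0.20, adjusted p = 0.9999) at 1 mM. At 1 mM RB1 was lower in 4 of 4 lines, with log2 differences of −0.21 to −0.09, the narrowest range of changes of the 10 genes at that dose.

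MDM2 (ENSGALG00000009942; chromosome 1, 35415393 to 35427159, plus strand) had no common direction with dose. It was at 28.2 CPM (C5), 40.3 CPM (C7), 316 CPM (C9) and 29.0 CPM (C11) in the control, at 24.8, 145, 314 and 167 CPM at 0.5 mM, at 21.2, 28.9, 292 and 30.2 CPM at 1 mM and at 223, 43.2, 152 and 23.1 CPM at 2 mM. The values fell into a high and a low set with none between 43.2 and 145 CPM, and the dose groups overlapped throughout. The log2 fold change at 2 mM was 0.13 (standard error 0.96, edgeR adjusted p = 0.983), and its sign turned in 6 of the 12 refits that left out a line or library. It was −0.78 without line C5, −0.47 without C5 at 2 mM, −0.067 without C9 at 2 mM, and −0.22, −0.18 and −0.18 without the controls of C5, C7 and C11, while it was 1.78 without the control of C9. In the test of slopes that differ between lines MDM2 had the smallest unadjusted p-value of the 10, without a call (edgeR adjusted p = 1).

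The high and low sets of MDM2 were the libraries with a positive and a negative length slope. MDM2 was at 145 to 316 CPM in the 7 libraries with a positive slope and at 21.2 to 43.2 CPM in the 9 with a negative slope, so the lowest of the 7 was 3.36 times the highest of the 9. CCND2 was at 61.7 to 92.2 CPM in the 7 and at 26.3 to 37.0 CPM in the 9. CDK6 was at 122 to 262 CPM in the 7 and at 53.3 to 95.9 CPM in the 9. These 3 of 10 genes did not overlap between the sets and were higher in the 7, as were 12% of all genes, and 0 of 10 were lower in the 7 without overlap, as were 3.25% of all genes. The summed level of fibroblast markers was 8520 to 28900 CPM in the 7 and 7240 to 67200 CPM in the 9, and that of 10 macrophage markers was 53.1 to 95.2 CPM and 50 to 197 CPM, with overlap in both. Of the macrophage markers, CTSS alone was at 40 to 142 CPM. Gene by gene, the median difference of mean log2 levels between the 7 and the 9 was −2.09 over 9 tested macrophage markers, −0.92 over 5 of smooth muscle and −0.02 over 8 of fibroblasts, beside −0.03 over all genes, so at the median macrophage and smooth muscle markers were lower in the 7. The other marker lists ran from −0.449 (5 ovarian or epithelial genes) to 0.426 (3 endothelial genes). Some macrophage markers were near the floor, with median levels of 0.0982 CPM (C1QA), 0.0382 CPM (C1QB) and 0.0877 CPM (C1QC), while CSF1R was at 6.51 CPM. The part of these cell types in the split of the members was not tested. The other 7 members overlapped, among them p21: CDKN1A was at 288 to 715 CPM in the 7 and at 282 to 624 CPM in the 9. The difference between the mean log2 levels of the sets was 2.91 for MDM2, 1.403 for CDK6, 1.116 for CCND2 and 0.30 for CDKN1A, and differences as high or higher were found in 1.28%, 10.3%, 14.1% and 34.8% of all genes in that order.

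**Figure D3:**
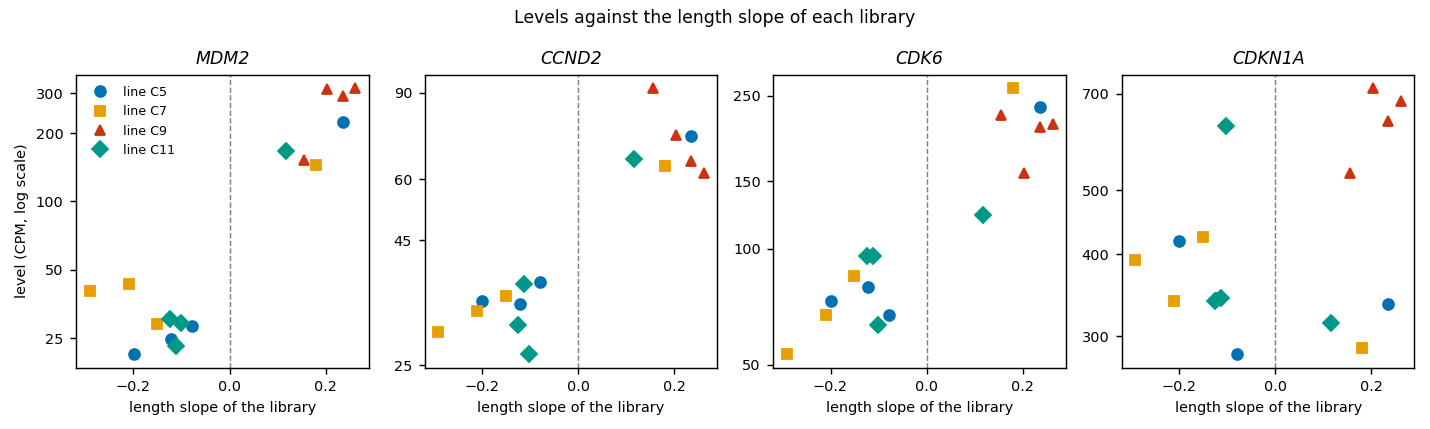
Level in CPM on a log scale (vertical axis) against the length slope of the library (horizontal axis, log2 CPM per doubling of exonic length) for MDM2, CCND2, CDK6 and CDKN1A, with 1 symbol for each of 16 libraries and colors for lines. MDM2, CCND2 and CDK6 are higher in each of the 7 libraries right of 0 than in each of the 9 left of it, and CDKN1A overlaps.

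The exonic length is 15304 bases in CDK6, the longest of the 10 genes, 3651 in CCND2 and 2180 in MDM2, and the median of the genes used for the slope is 2487.5 bases. The part of gene length in these levels was not tested. C5 at 2 mM, C7 at 0.5 mM and C11 at 0.5 mM each had MDM2 at 3.36 times or more the highest other library of their own line. The genes with levels most like those of MDM2 over the 16 libraries were PTPN14 (r = 0.99) and ERC1 (r = 0.985). They were chosen for this likeness, so their split without overlap follows from that of MDM2 (PTPN14 32 to 71.5 CPM in the 7 and 2.75 to 6.57 CPM in the 9). Of 26 measured genes of DNA damage signalling and its targets, 7 split in the same direction (among them APAF1, ATM, ATR, ZMAT3, XPC and MDM4) and 1 in the other (SESN2), beside 12% and 3.25% of all genes. In the other 4 gene lists described below, 2 of 22, 2 of 18, 1 of 27 and 1 of 21 tested genes were higher in the 7 without overlap. No test was made of this split, since the sets were drawn from the libraries themselves. The sign of the length slope made the sets, and the shares of all genes were not matched for exonic length.

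The 4 lines were compared to ask how far the levels depend on the line, by edgeR's quasi-likelihood test over all 16 libraries with dose as a factor. Of the 10 genes, 3 differed between lines (CDKN2B, CDKN2C and CDKN1A), and the background was 14.9% of all genes. The 4 libraries of a line are cultures of 1 animal. These p-values set differences between lines against the spread left within lines after dose. They cannot tell the hen from the culture.

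CDKN2B had the largest range, with means of 91.4 ± 34.8 CPM in C5, 266 ± 69.9 in C9, 600.0 ± 286 in C7 and 721 ± 380.2 in C11 (SD, n = 4 doses; edgeR adjusted p = 0.0138). C5 did not overlap with the other lines, and C7 and C11 overlapped with each other. CDKN2C had means of 7.26 ± 3.66 CPM in C5, 3.44 ± 1.75 in C7, 1.99 ± 0.897 in C11 and 1.66 ± 0.507 in C9 (edgeR adjusted p = 0.0174). C5 was the line with the lowest p15 and the highest p18. Both calls were lost without C5, with edgeR adjusted p-values of 0.155 and 0.118, and both stood on the 9 libraries with a negative length slope. The call of CDKN2C was also lost without C9 (edgeR adjusted p = 0.13) or C11 (0.0552).

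CDKN1A was at 641.5 ± 80.0 CPM in C9, above 345 ± 56.5 in C5, 361 ± 60.1 in C7 and 405 ± 147 in C11 (edgeR adjusted p = 0.0341). C9 overlapped only with the C11 control. All C9 libraries had a positive length slope, and CDKN1A was no longer called with the length slope in the model (adjusted p = 0.0603), without C7 (0.0528), without C9 (0.876) or on the 9 libraries with a negative slope, which hold none of C9 (0.641). MDM2 was also highest in C9 (268 ± 78.7 CPM against means of 62.3 to 74.3 CPM in the other lines, edgeR adjusted p = 0.063), and DESeq2 called both MDM2 (adjusted p = 0.00197) and CCND2 (adjusted p = 0.0203) between lines. That DESeq2 fit called 4775 of 20109 genes. By edgeR neither MDM2 nor CCND2 was called between lines with the length slope in the model or on the 9 libraries with a negative slope. Without C9 their edgeR adjusted p-values were 0.987 and 0.877, and without C5 both were called (0.0106 and 0.0215). CCND3 was called between lines with the length slope in the model (adjusted p = 0.00439), with its highest mean in C5 (62.6 ± 10.02 CPM) and its lowest in C11 (39.0 ± 7.88 CPM). With the length slope in the model, 3104 of 14108 genes were called.

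Of the variation of log2 CPM over the 16 libraries, line took 73.1% in CDKN2B, 66.7% in CDKN2C and 65.6% in CDKN1A, against a median of 39.8% over all genes. Dose took 37.8% in CDKN1B and 36.7% in CCND1, against a median of 18.1%. In RB1, dose took 9.04%, and in CDKN2B 5.16%.

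**Figure D4:**
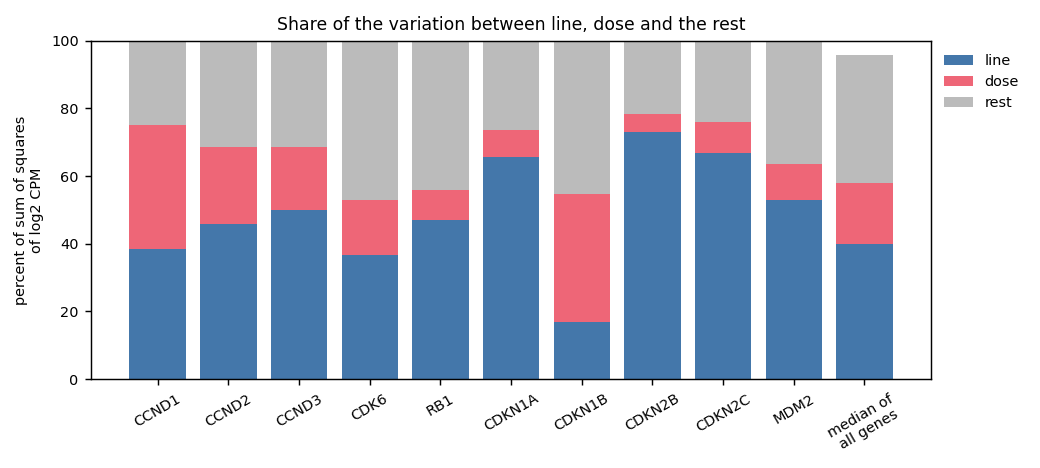
Percent of the sum of squares of log2 CPM over 16 libraries (vertical axis, from 0) taken by line, dose and the rest for each gene (horizontal axis), with the median of each share over all genes in the last bar, which need not add up to 100. Line takes 73.1% in CDKN2B, and dose takes its largest shares in CDKN1B (37.8%) and CCND1 (36.7%).

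The inhibitors were also compared with each other within libraries. Per kb, CDKN1A was the highest of the 4 in 10 libraries and CDKN2B in 6, and CDKN1B and CDKN2C led in none. CDKN2B made up 55.3% ± 16.9 of the summed inhibitor level in C11 and 52% ± 10.1 in C7, but 16% ± 8.09 in C5 (SD, n = 4 libraries). In C9 and C5 the leading inhibitor was CDKN1A, with 54% ± 4.61 and 44.6% ± 4.07. These are shares of RNA and are given without a test.

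The wider pathway was followed in lists of genes. Of 22 tested G1 and S phase regulators other than the members, 0 were called by edgeR in the dose trend and 6 had an unadjusted p-value under 0.05, all with higher levels at higher dose, where 0.432% of all genes were called and 14.8% were under 0.05. They included CDC25A, a phosphatase that activates CDKs (11.8 ± 2.11 CPM in the control and 18.9 ± 2.85 at 2 mM, slope 0.36 per mM, edgeR adjusted p = 0.165), and cyclin E2, which acts after the D cyclins (CCNE2, 0.875 ± 0.276 and 2.37 ± 0.589 CPM, slope 0.76, adjusted p = 0.169). WEE1, a kinase that restrains CDKs, was at 16.6 ± 7.94 and 31.9 ± 8.54 CPM (slope 0.51, adjusted p = 0.264). The median slope of the list was 0.15 per mM, beside 0.00 over all genes. At 1 mM against the control, 3 of the 22 were higher and 1 lower at an unadjusted edgeR p-value under 0.05, where 4.77% of all genes were under it.

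Of 27 tested E2F target genes of S phase, 1 was called in the trend and 7 had an unadjusted p-value under 0.05, all with higher levels at higher dose (0.432% and 14.8% of all genes). The lists share genes, and CCNE2 is counted in this list and in the one before. TK1, the thymidine kinase of S phase, rose from 60.8 ± 12.2 CPM in the control to 148 ± 37.5 CPM at 2 mM, with a slope of 0.62 per mM (standard error 0.114, edgeR adjusted p = 0.0312). The slope of TK1 stayed at 0.53 to 0.71 per mM with any line or library left out, and the edgeR call was lost without C5 (adjusted p = 0.22), C7 (0.0662), C9 (0.252) or C11 (0.102). It was also lost without 5 single libraries (controls of C5 and C7, C9 at 0.5 mM, C5 and C9 at 2 mM; adjusted p = 0.0519 to 0.112), without the 2 mM libraries (slope 0.74, adjusted p = 0.515) and on the 9 libraries with a negative length slope (slope 0.58, adjusted p = 0.564), fits with fewer libraries. TK1 was called in each trend setting that kept every library. By edgeR, adjusted p was 0.0297 under RLE scaling, 0.0479 without a count filter and 0.0279 with the filter at 1 CPM. It was 0.01 where the line was a block, and 0.00281 where the length slope was added to that model. DESeq2 gave 0.000263, or 1.57e-05 once the line was a block. CDC6, which loads the replication helicase, was at 1.95 ± 0.539 CPM and 4.86 ± 1.03 CPM (slope 0.76, adjusted p = 0.154). Slopes were above 0 in 24 of 27 genes, beside 50.5% of all genes, with a median of 0.26 per mM. At 2 mM, 22 of 27 were higher than in the control, with a median log2 fold change of 0.55. None passed the threshold by edgeR, which called 0 of 13289 genes at that dose, so this says little about the list. Calls by DESeq2 at 2 mM were not examined for this list. The summed level of proliferation markers, given above for the control and 2 mM, was 58.9 to 293 CPM at 0.5 mM and 54.4 to 289 CPM at 1 mM. Its ranges overlapped between all groups and did not follow the order of doses. Its part in the levels of the E2F target genes was not tested.

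The remaining lists held no call in any dose comparison or in the trend by edgeR. Of 18 tested genes for the degradation and stability of cyclins and CDK inhibitors, 2 had an unadjusted p-value under 0.05 in the trend, a share below the 14.8% of all genes, as were those of the next lists. These were GSK3B, the kinase that marks cyclin D1 for export and degradation in mammals (125 ± 20.3 CPM in the control and 155 ± 2.37 at 2 mM, edgeR adjusted p = 0.283), and UBAC1, a subunit of a ubiquitin ligase that acts on p27 in mammals (30.3 ± 6.44 and 40.7 ± 4.62 CPM, adjusted p = 0.311). FBXO31, which binds cyclin D1 for degradation in mammals, was at 33.6 ± 8.87 and 23.8 ± 1.37 CPM (adjusted p = 0.363). Of the 26 tested genes of DNA damage signalling and its targets, 1 had a p-value under 0.05 in the trend, the checkpoint kinase CHEK1 (4.59 ± 1.19 and 6.72 ± 1.34 CPM, adjusted p = 0.322). The growth arrest genes GADD45A (75.3 ± 12.4 and 110 ± 25.1 CPM, slope 0.32, adjusted p = 0.398) and GADD45G (12.9 ± 6.68 and 7.88 ± 1.6 CPM, slope −0.61, adjusted p = 0.402) had slopes of opposite sign. Of 21 tested transcription factors upstream of D cyclins and CDK inhibitors, 1 had a p-value under 0.05 in the trend, KLF10, a factor induced by TGF-β (120 ± 27.3 and 170 ± 40.5 CPM, adjusted p = 0.162). STAT3, which activates D cyclin genes in mammals, was at 606 ± 196 and 434 ± 101 CPM (adjusted p = 0.378), and ETS2 at 27 ± 15.5 and 49.7 ± 21.1 CPM (adjusted p = 0.38). At 1 mM the share in this list was above that of all genes. There 4 of 21 had an unadjusted edgeR p-value under 0.05, all higher than in the control, where 4.77% of all genes did. The median log2 fold change of the list at 1 mM was 0.33, beside −0.003 over all genes. At 2 mM 2 of 21 had such a p-value, where 10.6% of all genes did. CDK4, CDKN1C, CDKN2D and E2F2 were not analysed here.

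The genes whose log2 levels over the 16 libraries were most like each member, by Pearson r among 8953 genes with a symbol and a mean count of at least 100, were as follows. CCND1 was most like CPEB2 (r = 0.972) and UBAC1 (0.929), CCND2 like ATRN (0.97) and TRAK2 (0.962), and CCND3 like NUDT1 (0.93). CDK6 was most like LARP1B (0.967) and EGFR (0.964), the receptor of the growth factor in the medium. CDKN1A was most like PARP16 (0.87), the lowest first value of the 10, and CDKN1B like CNNM1 (0.916) and TWIST1 (0.9). CDKN2B was most like RXRG (0.971) and KIF1A (0.953), CDKN2C like TPST2 (0.966) and TNFAIP8L1 (0.946), and RB1 like NUAK1 (0.926) and SLC6A15 (0.92). The best of 8953 candidates is high by selection, and the points share lines and the length slope, so these are descriptions.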

How the data were processed

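Stranded mRNA libraries of 16 cultures (4 lines, 4 doses) were analysed. The authors aligned single-end reads to the chicken genome GRCg6a with HISAT2 2.1.0, used featureCounts for strand-specific counts over exons, giving a read to each gene it overlaps, and deposited counts per gene without normalization. Gene length is an other column of that table, per the file headers. The authors' DESeq2 tables of each dose against control (fold changes, p-values and normalized counts) were not used. Symbols came from the count table, which gives none for 10393 of 23910 genes.

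The main tool was edgeR 4.0.16 in R 4.3.3 (quasi-likelihood F test, two-sided, TMM scaling, low counts removed with filterByExpr, Benjamini-Hochberg adjustment over all genes tested) and DESeq2 1.42.0 as an alternative. Dose comparisons used the 8 libraries concerned without the line as a term (the paper's methods state none), so differences between lines count as error, and the trend, the lines and the interaction used all 16. The standard error is the log2 change divided by the root of F. Log2 CPM used a prior count of 1, and the length slope used genes averaging 100 counts or more. Scripts were tested on simulated data.

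Named genes were the 10 members, the 3 genes of each list with the smallest trend p-value and the 2 genes most like each member. Some genes that this rule names are not reported here. Members and lists were chosen with earlier results of these data known. Other alternatives were RLE scaling, a filter at a mean of 1 CPM or none, the line as a replicate block, alone or with the length slope, all 16 libraries in one fit, no 2 mM libraries, and each line or library left out. Chosen after seeing the data were DESeq2 with the block, lines with an unchanged slope sign at 0.5 mM, and the 9 libraries with a negative slope.

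The line pairs libraries across doses, because each line is 1 hen. After removal of dose means, library pairs from 1 line correlated at a median of 0.668 where the slope sign was shared (range 0.123 to 0.815 over 15 pairs) and 0.039 where it was not (9 pairs). Across lines the medians were 0.0753 for 31 pairs sharing the sign and −0.309 for 41 that did not.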

Additional observations from a re-analysis of the deposited data

Results flagged for a closer look

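A single library stood apart from the other 3 of its dose group in 10 of 40 combinations of gene and dose, by a test of the gap between the extreme library and its neighbor. Chance flags about 1 in 20 groups if values are normally distributed, which was not checked for CPM. Each flagged library was the highest of its group, and the 10 genes are not independent of each other. Line C9 gave 8 of the 10. It had MDM2 at 316 CPM in the control (others 28.2 to 40.3 CPM) and 292 CPM at 1 mM (others 21.2 to 30.2 CPM), and CDK6 at 211 CPM in the control (others 53.3 to 67.3 CPM) and 207 CPM at 1 mM (others 73.1 to 95.8 CPM). At 1 mM it also had CCND2 at 65.3 CPM (others 30.3 to 34.7 CPM) and RB1 at 102 CPM (others 71.9 to 74.6 CPM). CDKN1A was at 715 CPM in C9 at 0.5 mM (others 288 to 343 CPM) and at 531 CPM at 2 mM (others 336 to 343 CPM). In the control and at 1 mM, C9 was the only line with a positive length slope. Line C5 gave the other 2, CDKN1B at 279 CPM at 0.5 mM (others 158 to 176 CPM) and CDKN2C at 11.9 CPM at 1 mM (others 1.75 to 3.2 CPM).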

How the results depend on the processing

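No member was called by dose or in the trend with RLE scaling, other count filters, DESeq2 or the line as a replicate block, each alone, or with any line or library left out. With the block and the length slope, 1 member was called at 2 mM (CCND3), beside 722 of 13289 genes. In the trend 2 were called (CCND1 and CCND3), beside 2277 of 14108 genes. DESeq2 with the block called 1 at 2 mM and 1 in the trend, CCND1 in both, beside 1841 of 19267 and 1713 of 20109 genes. Between lines DESeq2 called 5 members in place of 3 (4775 of 20109 genes in all), and leaving out a line gave 1 to 3, the lowest without C9. The called members also changed. Without C5, MDM2 (edgeR adjusted p = 0.0106) and CCND2 (0.0215) gained a call, and CCND3 did without C7 (0.0448). The block alone changed no call of a member. It turned 2 signs, CDKN2B at 1 mM to −0.19 and the MDM2 slope to 0.19, and the cause was not tested.

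Over 899 refits of a member's log2 change or slope, 826 kept sign and call, 5 gained a call and 68 changed sign, and 17 of 40 values never changed sign, among them CCND1 at each dose and in the trend. Signs also turned at 0.5 mM in the lines with an unchanged slope sign (CDK6 −0.23, CDKN1A 0.14, MDM2 −0.013), for CDKN2B at 1 mM with block and length slope (−0.16) or DESeq2 with the block (−0.22), at 2 mM with block and length slope (CDKN1B 0.046, MDM2 −0.23), for the MDM2 slope by DESeq2 with the block (0.17), for slopes without 2 mM (CDKN1B 0.67, CDKN2B 0.046) and for slopes on the 9 libraries with a negative length slope (CDKN1B 0.036, CDKN2B 0.011, MDM2 0.011). The cause was not tested.

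Leaving out a line or library gave ranges across 0 for these. At 0.5 mM they were −0.063 to 0.34 for CCND3, −0.061 to 0.29 for CDKN1B, −0.15 to 1.27 for CDKN2C and −0.14 to 0.11 for RB1. At 1 mM they were −0.21 to 0.42 for CCND2, −0.19 to 0.92 for CDK6, −0.31 to 0.15 for CDKN1A, −0.41 to 0.64 for CDKN2B, −0.12 to 1.59 for CDKN2C and −1.92 to 1.53 for MDM2, with both ends of MDM2 set by C9. At 2 mM they were −0.34 to 0.11 for CDKN1B, −1.19 to 0.039 for CDKN2B, −0.046 to 1.09 for CDKN2C, −0.13 to 0.098 for RB1 and −0.78 to 1.78 for MDM2. Slopes per mM ran from −0.12 to 0.11 for CDKN1B, −0.40 to 0.12 for CDKN2B, −0.085 to 0.51 for CDKN2C, −0.074 to 0.033 for RB1 and −0.57 to 0.41 for MDM2.

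Counts over all genes moved more. At 0.5 mM DESeq2 with the block called 1 gene (main count 0). At 1 mM, against 0, the block with the length slope called 234, DESeq2 34 and DESeq2 with the block 631. At 2 mM, against 0, these gave 722, 365 and 1841, and all 16 libraries in one fit gave 3. In the trend, against 61, DESeq2 called 731, no filter 40, the block 700, block and length slope 2277, DESeq2 with the block 1713, and leaving out the 2 mM libraries or the 7 with a positive slope 0. Leaving out a line or library gave 0 to 205. Between lines, against 2099, DESeq2 called 4775, the 9 libraries with a negative slope 859, and leaving out a line gave 337 to 2790. For slopes that differ between lines, DESeq2 called 4 against 0. Depth was not varied, and the lowest count of a member in a library was 41, for CDKN2C.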
